A study of Homo sapiens with 4 samples.

Results

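The 10 genes considered are the human topoisomerases TOP3B, TOP3A, TOP1, TOP1MT, TOP2A and TOP2B, the tyrosyl-DNA phosphodiesterases TDP1 and TDP2, and the TOP3A partners RMI1 and RMI2. They were chosen by name, and 9 of them were found among the 35820 rows of the deposited read-count table; TOP1 was not analysed here. All 9 passed the filter on low counts, which left 12269 genes for testing.

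RNA was measured in 4 libraries of HCT116, an established human colon carcinoma line. Of these, 2 libraries came from clone E2-4, in which a CRISPR guide RNA was directed at exon 2 of TOP3B (TOP3B-KO, called KO), and 2 came from wild-type cells (WT). The labels name no other allele or agent in either group, and all cells grew in the same medium. The KO group is 1 clone, so clone and genotype cannot be told apart, and nothing in the labels says that replicates are separate cultures, so p-values measure the spread between these libraries.

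Topoisomerases relax the strain and undo the links that build up when DNA is copied and transcribed, by cutting strands and joining them again through a tyrosine that is briefly bonded to the cut end. Type IA enzymes (TOP3A, TOP3B) pass a strand through a gap in another strand, type IB enzymes (TOP1, TOP1MT) let a nicked duplex swivel, and type II enzymes (TOP2A, TOP2B) pass a whole duplex through a gated break. When an enzyme stays trapped on the nucleic acid, TDP1 and TDP2 hydrolyse the bond to the tyrosine. RMI1 and RMI2 hold TOP3A in the complex with the helicase BLM that dissolves double Holliday junctions, while TOP3B works with TDRD3 on R-loops and on mRNA.

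The exon that the guide RNA was directed at holds the start of the TOP3B reading frame, and its coding part is shown for that start; where in the exon the guide cuts was not analysed here. In GENCODE 29 (GRCh38) TOP3B (ENSG00000100038) lies on the minus strand of chromosome 22 and has 17 annotated transcripts. In the principal transcript used, exon 2 of 18 exons is 168 bases long and is the first coding exon. It carries the first 70 of 2586 coding bases, at chr22:21975640-21975709. The start codon is in capitals, and the next ATG in the same frame begins at coding base 16. The guide's own sequence and the alleles of the clone were likewise not analysed.
TOP3B exon 2, coding part: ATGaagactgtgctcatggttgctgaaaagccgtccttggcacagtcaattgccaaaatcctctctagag

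The members of each pair of related enzymes can be told apart at the length of these reads, which the labels give as pairs of 150 bases. Of all windows of 31 bases in 1 reference transcript per gene, 0% were shared with another gene's transcript for TOP2A, TOP2B, TOP1MT, TDP2 and RMI2. The shares were 0.517% for TDP1, 0.619% for RMI1 and 2.62% for TOP3A. TOP3B shared 13.7% of its windows, all with its pseudogene TOP3BP1, which was listed at 0 in every library; 0 of the 40 windows in the coding part of exon 2 were shared. The longest identical stretch between the coding sequences of TOP3A and TOP3B was 20 bases, and that between TOP2A and TOP2B was 22 bases. They are shown because they are the longest stretches at which reads of a pair could be confused.
TOP3A and TOP3B, chromosomes 17 and 22: ctcatggagaagcatggcat
TOP2A and TOP2B, chromosomes 17 and 3: ctggtcctgaagatgatgctgc

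The KO libraries held 10450048 and 16143634 estimated counts, and the WT libraries 15141919 and 11750516. The TMM factor, which corrects for unequal library composition, was 1.06 in both KO libraries, against 0.858 and 1.04 in the WT libraries, so WT replicate 1 stood apart. A count of 0 allows up to 0.176 to 0.271 CPM (counts scaled to library size times the TMM factor) in a library, for counting error only. Of 7 colon epithelial markers, 6 were tested and 1 (KRT19) passed DESeq2 as lower in KO. Of the tested markers 5 had a log2 fold change below 0 and 1, KRT18 (0.41), above 0, with a median of -0.46. The KO libraries lay below those of WT in 3 (EPCAM, KRT19 and CDH1) and above in 0, where 23.5% of all tested genes did so each way. The summed level of the 7 markers was 1522 and 1452 CPM in KO, against 2584 and 2117 CPM in WT. KRT19 made up 1206 and 1083 CPM of it in KO, against 2243 and 1744.5 CPM in WT, while the other 6 markers summed to 316 and 368 CPM in KO, against 341 and 372 CPM in WT. The part of these markers in the results below was not tested. VIL1 was at 0 except for 1 count in WT replicate 2, and CDX2 had 56 and 0 counts in KO, against 46 and 44 in WT. Leukocyte and erythroid markers summed to 1.23 to 1.45 CPM in KO and 1.31 to 2.70 CPM in WT, with PTPRC and CD3E at 0. Fibroblast and endothelial markers summed to 0.633 to 1.23 CPM in KO and 0.925 to 1.72 CPM in WT, with COL3A1 and VWF at 0.

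None of the members passed the test. By edgeR's quasi-likelihood test 0 of 9 had an adjusted p under 0.05, where 0.00815% of all tested genes did (1 of 12269), and the members' adjusted p ran from 0.395 to 0.908. At an unadjusted p under 0.05 there was 1 member, RMI1, against 11.2% of all genes. By DESeq2, an alternative, 0 of 9 passed, against 1.45% of all genes, and 0 had an unadjusted p under 0.05. In 7 members the KO and WT libraries did not overlap, with KO above in 4 and below in 3, where 47.0% of all tested genes were so separated, 23.5% each way. On the deposited RPKM 7 members were separated as well, with KO above in 5 and below in 2, where 45.8% of all genes were. The shares of all genes each way on RPKM are not given here. With a pseudocount of 0.1 the median log2 fold change of all tested genes on RPKM was 0.11, towards higher values in KO. The median size of the log2 fold change was 0.32 for the members and 0.27 for all tested genes. The largest fitted value was 0.43, for TDP2, and the intervals given below reach further for several members.

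**Figure D1:**
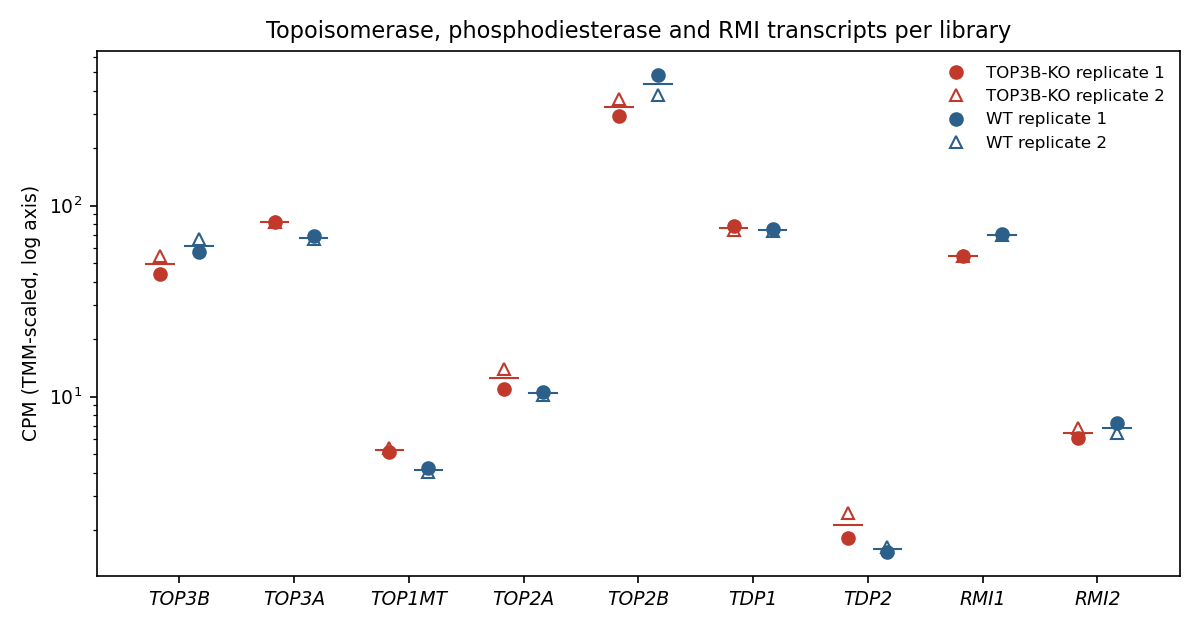
Level of each member in each library, in CPM scaled by TMM on a log axis, with KO left of WT for each gene; filled circles are replicate 1, open triangles replicate 2 and bars group means. TOP2B stands highest at 294 to 485 CPM and TDP2 lowest at 1.54 to 2.47 CPM, and the groups overlap for TDP1 and RMI2.

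TOP3B, the enzyme targeted in the clone, was still transcribed there. Its level was 43.9 and 54.7 CPM in KO, against 57.1 and 66.5 CPM in WT, from 486 and 931 counts in KO and 741 and 812 counts in WT. The higher KO library stayed just under the lower WT library. The difference was -0.32 on the log2 scale (SE 0.17, n = 2 each), with a 95% interval of -0.77 to 0.12, and did not pass (edgeR adjusted p = 0.522). Its size moved with the libraries used, to -0.17 without KO replicate 1, -0.49 without KO replicate 2, -0.43 without WT replicate 1 and -0.20 without WT replicate 2. The separation rests on the scaling: on the deposited RPKM, which carry no TMM factor, the values were 3.93 and 4.88 in KO, against 4.14 and 5.85 in WT, and the groups overlapped. Since small changes in an exon can leave an mRNA in place, this level does not check the genotype. As these are bulk samples, fewer expressing cells and less RNA per cell cannot be told apart, here and for every gene below. Among 7277 other genes with a mean of at least 10 CPM, those whose centred log2 CPM lay closest to that of TOP3B over the 4 libraries were DCAF17, KIAA0586 and BTN2A2. Their root mean square differences were 0.02 on the log2 scale, a likeness that 4 libraries define loosely.

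TOP3A, the type IA enzyme that acts in the nucleus with BLM and also in mitochondria, had 82.0 and 81.8 CPM in KO, against 69.0 and 66.7 CPM in WT. The KO libraries were nearly equal and above both WT libraries. With a log2 fold change of 0.27 (SE 0.11), TOP3A had a 95% interval of -0.02 to 0.56 (edgeR adjusted p = 0.466). Of 20 annotated transcripts none has values here, so a change among isoforms, such as those for the nuclear and mitochondrial enzymes, was not analysed here.

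RMI1, the OB-fold protein that keeps TOP3A bound to BLM, had 54.6 and 54.4 CPM in KO, against 71.3 and 69.8 CPM in WT. Replicates of RMI1 differed by under 0.04 on the log2 scale, and the groups were apart by -0.37 (SE 0.12; 95% interval -0.68 to -0.07). The edgeR p was 0.0258 unadjusted and 0.395 adjusted over all genes, and the DESeq2 adjusted p was 0.576. The RMI1 value depended on the scaling. It was -0.21 with no factor beyond library size (edgeR unadjusted p = 0.311). By limma on the deposited RPKM it was -0.20 and -0.15 with pseudocounts of 0.1 and 1. Relative to the median of all genes these 3 values were -0.36, -0.31 and -0.20. RMI2, the smaller subunit that binds RMI1, had 6.05 and 6.81 CPM in KO, against 7.24 and 6.47 CPM in WT, with overlapping groups. RMI2 had a log2 fold change of -0.09 (SE 0.27) and an edgeR adjusted p of 0.908, and its sign turned to 0.07 with no factor beyond library size. Leaving out a library gave RMI2 values of -0.18 to -0.01 by edgeR. The RMI2 gene spans 132 kb and overlaps several genes on the other strand. The labels give a stranded kit, but whether the counting used strand is not given in the sources used here, and the effect of these neighbours on the RMI2 estimate was not tested.

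TOP2A, the type II enzyme of dividing cells that separates sister chromatids, had 11.0 and 13.9 CPM in KO, against 10.6 and 10.2 CPM in WT. KO replicate 2 was the highest library, and KO replicate 1 lay just above the WT libraries. TOP2A differed by 0.26 on the log2 scale (SE 0.23, edgeR adjusted p = 0.664), by 0.42 without KO replicate 1 and by 0.08 without KO replicate 2. TOP2B, its paralogue, which is also present in cells that do not divide and acts at promoters and chromatin loop anchors, had 294 and 360.4 CPM in KO, against 485 and 381 CPM in WT. WT replicate 1 was the highest library, and WT replicate 2 lay close to KO replicate 2. TOP2B had a log2 fold change of -0.40 (SE 0.18) and a 95% interval of -0.86 to 0.06, with an adjusted p of 0.484 by edgeR and 0.557 by DESeq2. Without WT replicate 2, DESeq2 called TOP2B lower in KO (log2 fold change -0.56, adjusted p = 0.00794), while edgeR did not (adjusted p = 0.0898). That setting rests on WT replicate 1 alone, the library with the lowest TMM factor, and gave 721 DESeq2 calls over all genes, against 187 with both WT libraries. By edgeR the TOP2B log2 fold change shrank to -0.26 when KO replicate 1 was left out and to -0.22 when WT replicate 1 was.

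TOP1MT, the type IB enzyme of mitochondria, had 5.15 and 5.40 CPM in KO, against 4.24 and 4.01 CPM in WT. Its counts were 57 and 92 in KO and 55 and 49 in WT, so counting error is large. The KO libraries lay above those of WT, yet the log2 fold change of 0.35 (SE 0.30) had a 95% interval of -0.41 to 1.11 (edgeR adjusted p = 0.648).

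TDP1, which clears trapped TOP1 and other 3′ adducts, had 78.3 and 74.5 CPM in KO, against 75.0 and 73.3 CPM in WT, and KO replicate 2 lay between the WT libraries. TDP1 differed by 0.04 on the log2 scale (SE 0.12, edgeR adjusted p = 0.898), and the 95% interval of -0.25 to 0.34 reaches 1.26-fold higher in KO. Leaving out a library gave TDP1 values of 0.01 to 0.08 by edgeR. TDP2, which clears 5′ adducts of type II enzymes and is known to act on trapped TOP3B too, had few counts, so counting error is large. Its counts were 20 and 42 in KO, against 20 and 20 in WT, or 1.81 and 2.47 CPM against 1.54 and 1.64 CPM. On the log2 scale TDP2 differed by 0.43 (SE 0.42, edgeR adjusted p = 0.691), and the 95% interval of -0.65 to 1.51 leaves room for a 2.85-fold higher level in KO. The value moved with the KO library used, being 0.63 without KO replicate 1 and 0.18 without KO replicate 2.

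**Figure D2:**
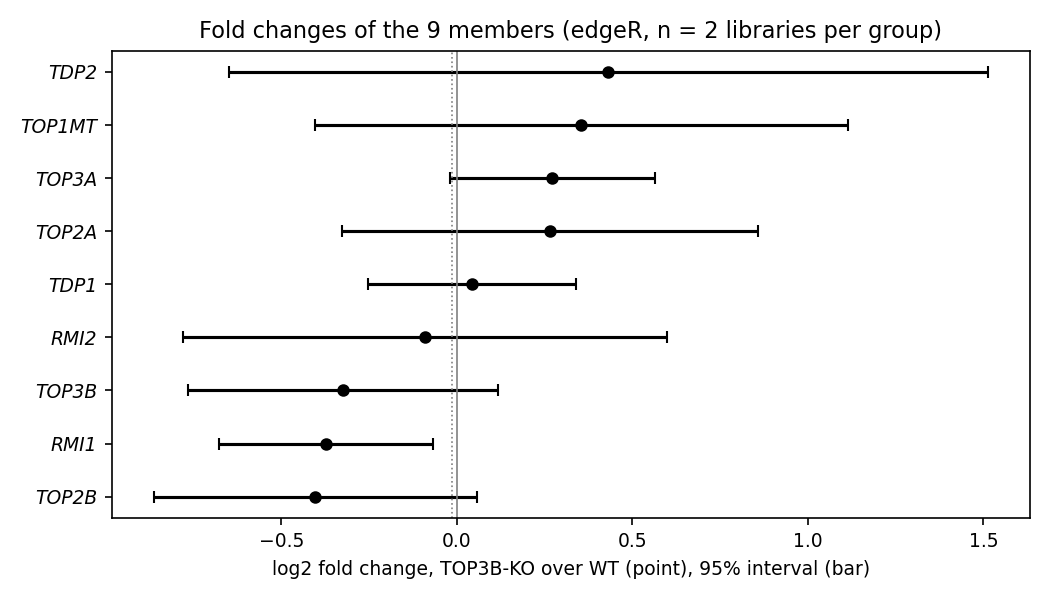
Log2 fold change of each member, KO over WT, from edgeR with 2 libraries per group (points), with 95% intervals (bars); the solid line marks 0 and the dotted line the median of all tested genes at -0.01. The interval of RMI1, -0.68 to -0.07, lies below 0, and the other 8 intervals include 0.

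A ratio between members within 1 library does not depend on how libraries are scaled. TOP3A counts were 1.87 and 1.50 times those of TOP3B in KO, against 1.21 and 1.00 times in WT. The balance of the type IA transcripts, in estimated counts, thus lay further towards TOP3A in both KO libraries, by 1.52-fold. Protein was not measured here. TOP2A counts were 0.0375 and 0.0386 of those of TOP2B in KO, against 0.0218 and 0.0269 in WT, a ratio 1.57-fold higher in KO. For TDP1 over TDP2 the ratios were 43.3 and 30.2 in KO, against 48.6 and 44.8 in WT, and for RMI1 over RMI2 they were 9.01 and 7.99 in KO, against 9.84 and 10.8 in WT. In all 4 ratios the groups did not overlap, where 47.0% of all tested genes, taken singly, were so separated. For TOP3A over TOP3B and TOP2A over TOP2B this outcome was fixed by the single genes. In each of these pairs KO lay above WT for the first gene and below WT for the second, so these separations add nothing new. The share for ratios of genes was not computed. TDP1 over TDP2 rests on TDP2 counts of 20 and 42 in KO, against 20 and 20 in WT. The exact permutation test of each ratio, two-sided, gave p = 0.333, which is the smallest p that 2 against 2 libraries allow, so none can reach the threshold.

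The ratio of RMI1 to its partner TOP3A was added after their values were seen. Its separation was fixed by those values, with KO below WT for RMI1 and above WT for TOP3A. RMI1 counts were 0.666 and 0.665 of those of TOP3A in KO, against 1.03 and 1.05 in WT. The mean ratio was 0.666 ± 0.000326 in KO and 1.04 ± 0.00931 in WT (SD, n = 2 each), 0.640-fold in KO relative to WT, and its exact two-sided permutation p is likewise 0.333. The KO ratios rest on RMI1 counts of 604 and 927 and TOP3A counts of 907 and 1393. Counting error at such counts is well above the KO SD, so that SD understates the uncertainty. For RMI2 over TOP3A the ratios were 0.0739 and 0.0833 in KO, against 0.105 and 0.0971 in WT.

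**Figure D3:**
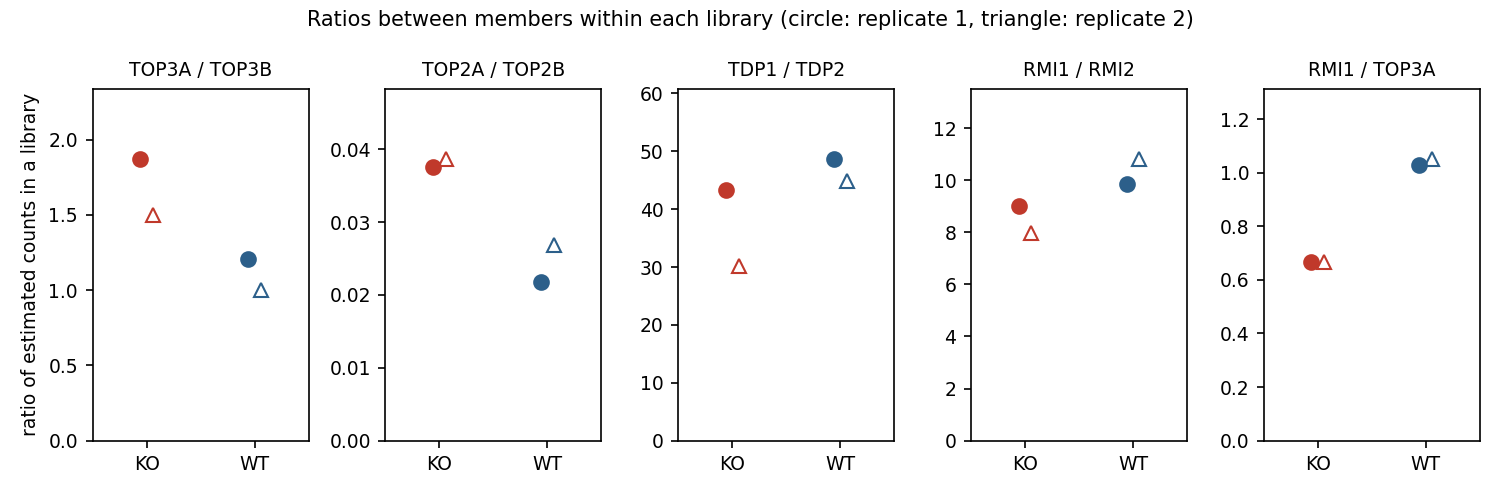
Ratios of the estimated counts of members within each library, KO left of WT, with a linear axis from 0 for each pair; circles are replicate 1 and triangles replicate 2. The KO libraries lie above both WT libraries for TOP3A over TOP3B and TOP2A over TOP2B, and below them for the other 3 ratios.

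Apart from the count ratios above, levels of the members were ranked per length only. The length behind the deposited RPKM is not given. The values imply lengths between 8.06 kb for TOP2A and 50.8 kb for RMI2, far over the reference mRNA lengths of 5758 and 1457 bases. The gene spans of TOP2A and RMI2 are longer still, 29.4 and 132 kb, while for RMI1 the implied 23.3 kb is close to its span of 23.4 kb. What parts of a gene these lengths cover was not tested. CPM per kb of the reference mRNA were therefore computed as well. On that scale TOP2B had the highest mean level, 60.7 ± 8.71 in KO and 80.3 ± 13.7 in WT (SD, n = 2 each). A middle group followed. In KO the order was TDP1 (20.6 ± 0.715), TOP3A (19.9 ± 0.0287), RMI1 (15.9 ± 0.0308) and TOP3B (15.9 ± 2.45), and RMI1 and TOP3B did not differ beyond their spread. In WT it was RMI1 (20.6 ± 0.311), TDP1 (20.0 ± 0.321), TOP3B (19.9 ± 2.14) and TOP3A (16.5 ± 0.396), with TOP3B spanning the levels of RMI1 and TDP1. The lowest members, in the same order in both groups, were RMI2 (4.41 ± 0.367 in KO and 4.71 ± 0.376 in WT), TOP1MT (2.69 ± 0.0907 in KO and 2.11 ± 0.0814 in WT), TOP2A (2.17 ± 0.355 in KO and 1.81 ± 0.0393 in WT) and TDP2 (1.03 ± 0.225 in KO and 0.767 ± 0.0330 in WT). On the deposited RPKM, TOP2B was again highest (14.0 ± 1.97 in KO and 16.4 ± 0.569 in WT), while RMI2 was lowest (0.134 ± 0.0121 in KO and 0.127 ± 0.00796 in WT) and TOP2A stood sixth. The middle group changed order as well, with TDP1 at rank 5 in both groups. The order of the members below TOP2B, middle and low alike, thus depends on the length used.

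TOP2A was low for a gene of dividing cells, and it was not alone in this table. Its deposited RPKM averaged 1.64 in KO and 1.22 in WT, where the proliferation marker MKI67 averaged 60.9 in KO and 50.0 in WT, and cyclin B1 (CCNB1) averaged 112.6 in KO and 129.3 in WT. On the deposited RPKM, 9 of 14 mitotic genes with values exceeded TOP2A in every library. The kinetochore gene CENPE, CENPF and the spindle factor TPX2 lay below it in every library. These places depend on the lengths behind the RPKM. On mean CPM, which use no length, CENPE and CENPF stayed below TOP2A in both groups. TPX2, at 18.3 CPM in KO and 23.8 CPM in WT, lay above TOP2A, at 12.5 CPM in KO and 10.4 CPM in WT. Other genes that are usually abundant also had deposited RPKM that were low for such genes, as seen after their values were known. Against the other genes compared, ACTB and TOP2A were not low, with a lower mean RPKM in 82.5% and 56.9% of genes. For NCL, PARP1 and SMC3 the shares were 38.3%, 16.6% and 3.0%. The cytoskeletal actin ACTB averaged 8.16 in KO and 4.86 in WT, nucleolin (NCL) 0.661 in KO and 0.425 in WT, the poly(ADP-ribose) polymerase PARP1 0.189 in KO and 0.0574 in WT, and the cohesin subunit SMC3 0.0250 in KO and 0.0140 in WT. Why these estimates are low was not tested. The ratio of TOP2A to TOP2B and the place of TOP2A among the members rest on the same estimates.

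The genes that work beside these enzymes were taken from 9 lists with 87 tested genes. By edgeR 0 of the 87 passed, against 0.00815% of all genes, and by DESeq2 1 did, against 1.45%. At an unadjusted edgeR p under 0.05 there were 7 (8.05%, against 11.2% of all genes). The groups did not overlap in 40.2%, against 47.0% of all genes. The median log2 fold change was 0.01 in these lists, 0.04 in the 9 members and -0.01 over all tested genes.

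The one gene called was APLF, a scaffold protein of strand-break repair that binds poly(ADP-ribose), in the list of single-strand break repair that follows TDP1. It had 0 and 2 counts in KO, against 36 and 31 in WT. The level over the group in KO was 0.0268 of that in WT, with an exact counting interval of 0.00318 to 0.101 at 95% (edgeR adjusted p = 0.253; DESeq2 adjusted p = 0.0303). The interval pools the reads of each group and covers counting error only, not the spread between libraries. Of the 10 tested genes of that list 6 had a log2 fold change above 0 and 4 below, with a median of 0.09.

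Among the partners of TOP3A, the list of the BLM complex and RecQ helicases had 12 tested genes with a median of -0.03, 5 above 0 and 7 below, and none passed. BLM itself, named for its place in the complex after its values were seen, had 21.8 and 23.8 CPM in KO, against 24.0 and 22.4 CPM in WT (-0.03 on the log2 scale, SE 0.16; edgeR adjusted p = 0.958). The genes of smallest p were the helicase RECQL5 (0.33, SE 0.14) and RPA3, a subunit of the single-strand DNA-binding protein RPA (-0.27, SE 0.12), both with an edgeR adjusted p of 0.475.

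The lists that go with TDP2 and with trapped enzymes did not pass either. End joining had 10 tested genes with a median of 0.04, led by the Ku subunits XRCC6 (0.25; edgeR adjusted p = 0.552) and XRCC5 (-0.48; adjusted p = 0.573). Removal of trapped enzymes had 15 tested genes with a median of -0.0009; the KO libraries lay under those of WT in 6 and above them in 1, where 23.5% of all tested genes did so each way, and the smallest p belonged to RAD50 (-0.32; edgeR adjusted p = 0.474). TRIM41, a ubiquitin ligase known to act on trapped TOP3B, is in this list and had 36.8 and 45.9 CPM in KO, against 31.4 and 44.1 CPM in WT; it was named for that role.

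The structural partners of the type II enzymes showed values on both sides. Condensin had 7 tested genes with a median of -0.19, led by NCAPH2 (0.35, SE 0.12; edgeR adjusted p = 0.427) and NCAPG2 (-0.34, SE 0.14; adjusted p = 0.455). Cohesin and its regulators had 8 tested genes with a median of -0.13, led by STAG2 (-0.17; edgeR adjusted p = 0.623) and SMC1A (-0.24; adjusted p = 0.668). The 14 tested mitotic genes had a median of 0.12, and the KO libraries lay above those of WT in 5 and below in 0, where 23.5% of all tested genes did so each way. CENPF had 10.3 and 7.22 CPM in KO, against 2.54 and 2.46 CPM in WT (1.80 on the log2 scale, SE 0.33, with an adjusted p of 0.260 by edgeR and 0.0523 by DESeq2), and CDK1, the kinase that starts mitosis, differed by 0.36 (SE 0.14; edgeR adjusted p = 0.445).

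Genes that maintain mitochondrial DNA, where TOP1MT and TOP3A act, had 10 tested members with a median of 0.15, 7 above 0 and 3 below. The nuclease MGME1 had 17.9 and 22.4 CPM in KO, against 13.7 and 13.8 CPM in WT (0.55 on the log2 scale, SE 0.20; edgeR adjusted p = 0.432). TFAM, which packages that DNA and acts in starting its transcription, had 77.0 and 82.3 CPM in KO, against 121.7 and 92.8 CPM in WT (-0.43, SE 0.17; edgeR adjusted p = 0.450). Of the meiotic topoisomerase-like genes SPO11 was at 0 in every library, and TOP6BL had 4.70 and 8.16 CPM in KO, against 6.09 and 5.73 CPM in WT (edgeR adjusted p = 0.904).

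**Figure D4:**
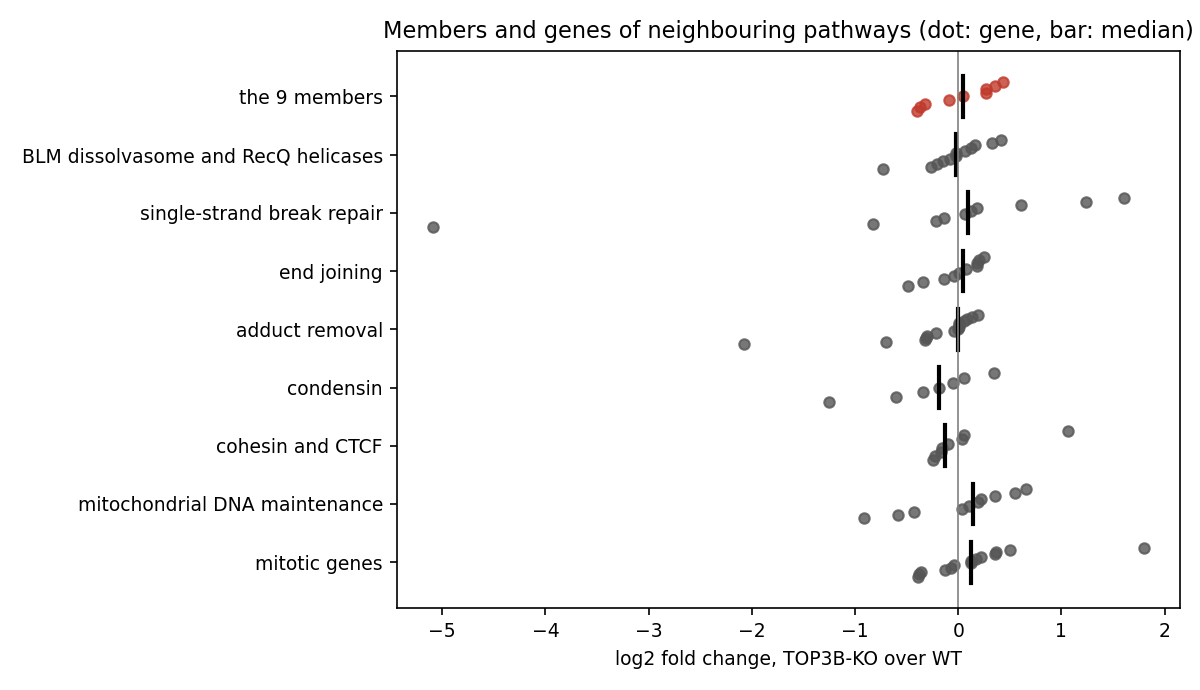
Log2 fold change, KO over WT, of the 9 members and of the tested genes of 8 neighbouring lists; each dot is a gene and each bar the median of its row. Medians lie between -0.19 (condensin) and 0.15 (mitochondrial DNA maintenance), and APLF is the dot near -5.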

How the data were processed

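For 4 libraries the authors deposited estimated counts and RPKM per gene. The submitters' processing notes name Salmon 1.10.1 and hg19; no label or file header gives the annotation, the gene summary or a filter. The labels' protocols give rRNA-depleted total RNA, a stranded kit and RNA integrity numbers above 8.0. The counts were whole as deposited, and together with RPKM 98.4% of 13639 genes allowed 1 gene length within 1 count; they were used as they stand. KO was compared with WT by edgeR 4.0.16 (quasi-likelihood F-test, TMM, filterByExpr, Benjamini-Hochberg over all tested genes; R 4.3.3), fitted on the whole table and tested on simulated data. The SE is the log2 fold change divided by the square root of F. DESeq2 1.42.0 and limma 3.58.1 gave alternatives.

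Members and lists were chosen with earlier results of these data known. Named genes were all members, list genes called by edgeR or DESeq2, or else the 2 of smallest edgeR p per list. Some genes of the lists are not reported here. Identifiers and sequences come from GENCODE 29 (GRCh38); the authors' build differs, and no coordinate was converted.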

Additional observations from a re-analysis of the deposited data

How the results depend on the processing

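The 9 members' fold changes were recomputed under 19 alternatives, of which 4, DESeq2 without each library, were added after seeing the data. Of 171 values 166 kept their direction and their side of the threshold. RMI2 changed sign under 4 alternatives, to 0.0741 with no factor beyond library size, 0.0385 and 0.0079 by limma on log2(RPKM + 0.1) and log2(RPKM + 1), and 0.0076 by DESeq2 without KO replicate 1. With no factor beyond library size the median of all genes moved to 0.14 and by log2(RPKM + 0.1) to 0.11; relative to it RMI2 stayed at -0.07 in both. TOP2B passed by DESeq2 without WT replicate 2 (-0.558, adjusted p = 0.00794), so the count of members past the threshold ranged from 0 to 1 over the settings that leave out a library and was 0 elsewhere; the cause was not tested. Over all genes the count of 1 became 187 by DESeq2, 5 with upper-quartile factors, 42 with no factor, 34 with no filter on low counts, and 6 and 0 by limma on RPKM with pseudocounts of 0.1 and 1. Leaving out a library gave 0 to 575 genes by edgeR, and by DESeq2 75, 72, 85 and 721 without KO replicates 1 and 2 and WT replicates 1 and 2. Without WT replicate 2 edgeR called 575, and 0 to 2 genes of each neighbouring list. In single-strand break repair 1 gene passed by DESeq2. With the replicate number as a block edgeR again called 1 gene and 0 members; the deviations of same-numbered libraries correlated at 0.0584 across genes, so the numbers were not taken to pair libraries. Depth limits TDP2 and TOP1MT, whose 95% intervals reach 2.85-fold and 2.17-fold higher in KO.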

Other observations

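Of the members, 3 have a protein-coding neighbour with values that starts within 1 kb on the other strand in GENCODE 29. RMI1 starts 95 bp from HNRNPK, an abundant RNA-binding protein, which had 1633 and 1913 CPM in KO, against 1923 and 1969 CPM in WT (log2 fold change -0.13, SE 0.15; edgeR adjusted p = 0.722). TDP2 starts 2 bp from ACOT13, a thioesterase, which averaged 29.2 ± 0.29 CPM in KO and 38.7 ± 7.15 CPM in WT (SD, n = 2 each; log2 fold change -0.41, SE 0.18; edgeR adjusted p = 0.488), while TDP2 itself had 0.43. TDP1 starts 162 bp from EFCAB11, which differed by -0.33 on the log2 scale (SE 0.26; edgeR adjusted p = 0.632). None of these neighbours passed the test, and none of the differences between a member and its neighbour was tested.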
